A study of Homo sapiens with 4 samples.

Results

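Genes of apelin and adrenomedullin signalling were read from RNA sequencing of human endothelial cells with and without GFI1, a transcriptional repressor needed when endothelium turns into blood. The set holds 8 genes of the 19912 in the count table, taken by symbol: the apelin pathway ligands APLN and APELA, their receptor APLNR, the peptide gene ADM, its receptor CALCRL and the accessory proteins RAMP1, RAMP2 and RAMP3. The cells were derived from H1, an established human embryonic stem cell line, and are labelled as GATA2/eGFP-positive endothelial cells in both genotypes. The comparison set GFI1 knockout cells (GFI1-KO, 2 libraries) against cells with intact GFI1 (WT, 2 libraries). The labels give neither the altered part of the gene nor the number of knockout clones, and do not tie the replicates to different cultures, so a p-value here covers the spread between these libraries, which may be technical.

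Apelin and the peptide encoded by APELA (also called ELABELA or Toddler) are secreted ligands of one G protein-coupled receptor, APLNR. This system takes part in early cardiovascular development and in vessel sprouting, where apelin is known as a product of tip cells, the endothelial cells that lead a sprout. Adrenomedullin, made from ADM, signals through CALCRL, a receptor that works only together with a RAMP protein: with RAMP2 or RAMP3 the pair binds adrenomedullin, and with RAMP1 it binds calcitonin gene-related peptide. In mice, loss of Adm, Calcrl or Ramp2 causes lethal defects of blood and lymphatic vessels.

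Of the 8 members, 5 have a promoter entry in the RefSeq table used here (APLN, APELA, ADM, CALCRL and RAMP3; GRCh38.p14). The 250 bases before the annotated start of APLN (chrX:129654957-129655206, minus strand, read 5′ to 3′) are shown because, of the 2 called members, APLN has an entry and RAMP2 has none. GFI1 protein binds DNA at sites with the core AATC, and capitals mark that core on either strand; this window has none.

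APLN: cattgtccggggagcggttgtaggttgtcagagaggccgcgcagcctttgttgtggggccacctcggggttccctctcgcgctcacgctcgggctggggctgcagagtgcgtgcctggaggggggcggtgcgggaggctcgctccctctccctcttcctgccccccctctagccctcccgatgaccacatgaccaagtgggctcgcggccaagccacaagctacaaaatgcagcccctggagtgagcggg

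The APLN window held 0 matches to AATC, as did those of ADM and RAMP3; the APELA window held 1 and the CALCRL window 2. Of 27305 promoter windows of this length, 65.5% held at least 1 match, so neither outcome is rare. The longer string TAAATCAC, found in 0.505% of all windows, was in 0 of the 5. The letters ACGTG, a form of the core of hypoxia response elements, occurred once, in the APELA window, and in 18.7% of all windows. Both strands were searched for each of these strings, and the counts describe letters in a short window, not binding. The other form of that core, GCGTG, was not counted, and the APLN window printed above holds it.

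Library depth was uneven. The GFI1-KO libraries held 146584 counts (replicate 1) and 2332621 counts (replicate 2), and the WT libraries 2239214 and 2417410. In GFI1-KO replicate 1 a single read is worth 6.62 CPM (read counts scaled to a common library total, after TMM adjustment of that total), against 0.42 to 0.45 CPM in the other 3 libraries, and a count of 0 there allows up to 19.9 CPM, taking 3 counts as the limit. Intervals and limits cover counting error only. GFI1 itself was at 19.9 and 19.6 CPM in the GFI1-KO libraries, against 58.5 and 58.3 CPM in the WT libraries, and the first of these values rests on 3 reads (counting interval 4.10 to 58.1 CPM). Its log2 fold change was -1.57 (edgeR adjusted p = 0.0215), which did not pass with DESeq2 (0.443) or without GFI1-KO replicate 2 (0.271), WT replicate 1 (0.137) or WT replicate 2 (0.096). GATA2, the gene named in the sorting label, was itself at 139 and 124 CPM in GFI1-KO against 293 and 252 CPM in WT (-1.09, edgeR adjusted p = 0.0376). That call was lost with DESeq2 (0.129), edgeR's newer quasi-likelihood dispersion (0.0673), upper-quartile scaling (0.0518), a minimum mean of 5 CPM (0.0673) and without GFI1-KO replicate 2 (0.131), WT replicate 1 (0.446) or WT replicate 2 (0.0876). All 10 endothelial markers examined were detected. Their summed level was 8049 and 9285 CPM in GFI1-KO against 6042 and 6354 CPM in WT. KDR alone supplied 3703 and 4970 CPM of this in GFI1-KO and 2995 and 3285 CPM in WT.

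The members were asked which are present, in what order of level, which differ without GFI1, and how the parts of a receptor stand to each other. Of the 8, RAMP2, CALCRL, APLN and APLNR passed the low-count filter and were tested; ADM, APELA, RAMP1 and RAMP3 did not pass it and are given as counts.

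RAMP2, the partner that turns CALCRL into an adrenomedullin receptor, rose without GFI1. It was at 364 and 233 CPM in GFI1-KO replicates 1 and 2, against 114 and 69.2 CPM in WT replicates 1 and 2. These values rest on 55 and 524 reads in GFI1-KO and 255 and 165 reads in WT. Both GFI1-KO libraries lay above both WT libraries, and the exact 95% counting interval of the shallow library, 275 to 474 CPM, did not reach the WT intervals, which ended at 129 CPM. The mean was 299 ± 92.7 CPM in GFI1-KO and 91.6 ± 31.6 CPM in WT (SD, n = 2 each). The log2 fold change of 1.61 (SE 0.28, edgeR quasi-likelihood adjusted p = 0.0103) corresponds to 3.05-fold. Across all 11380 genes tested, 0.958% were called at an adjusted p under 0.05, with 0.773% called higher in GFI1-KO, and 18.6% had both GFI1-KO libraries above both WT libraries.

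The RAMP2 call held whichever single library was omitted, with log2 fold changes of 1.34 to 2.05, and with DESeq2 (1.66, adjusted p = 0.00358) and limma-voom (1.55, adjusted p = 0.00656). It did not pass when the 3 deep libraries were thinned to the depth of the shallow one (1.68, median adjusted p = 0.0933 over 10 draws). RAMP2 (ENSG00000131477; chromosome 17, 42758447 to 42763041, plus strand, GRCh38) shares 412 of its 1148 exonic bases with RAMP2-AS1 on the opposite strand, which has no row of its own in the table. Whether the counting used strand is not given in the sources used here. Reads of this antisense RNA may be among those of RAMP2, and their part in the difference was not tested.

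**Figure D1:**
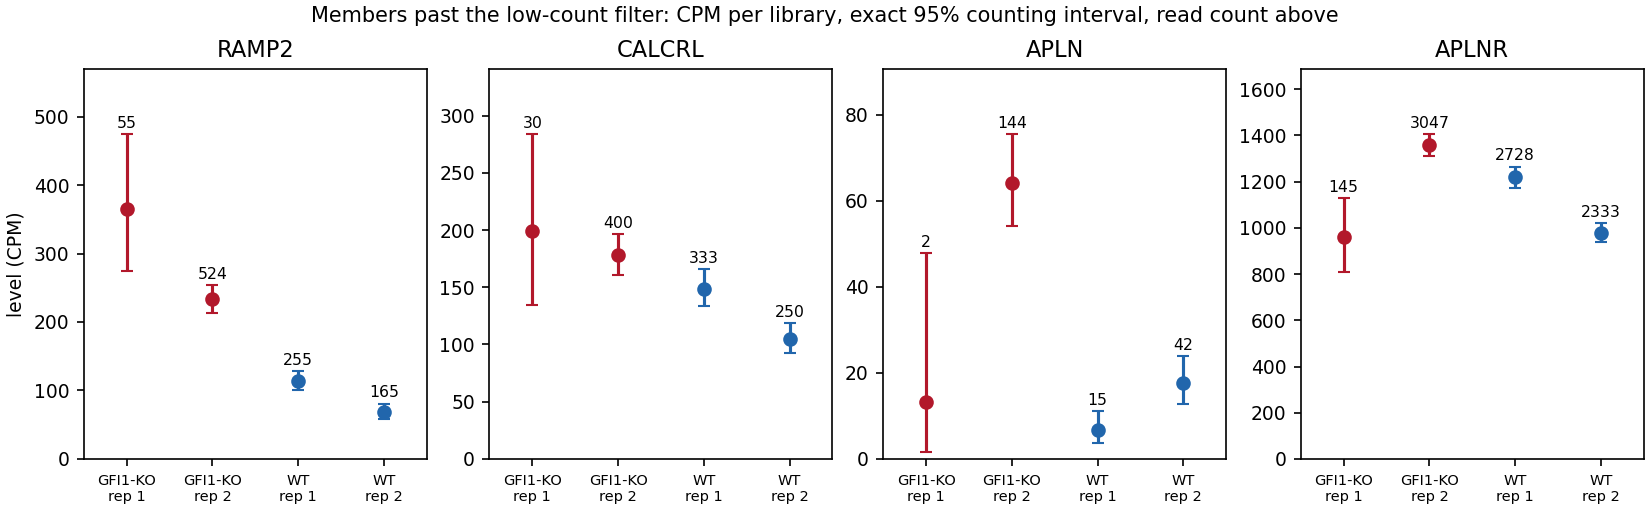
Level of each tested member in CPM (vertical axes, each from 0) in the 2 GFI1-KO libraries (red) and the 2 WT libraries (blue); points are single libraries, bars are exact 95% counting intervals and the number above each is its read count. RAMP2 and CALCRL are higher in both GFI1-KO libraries than in both WT libraries, APLN is high in GFI1-KO replicate 2 alone, on 144 reads, and the APLNR groups overlap.

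CALCRL, the receptor itself, lay higher in both GFI1-KO libraries by a smaller margin that did not pass the test. It was at 199 and 178 CPM in GFI1-KO, against 149 and 105 CPM in WT. The groups did not overlap, with both GFI1-KO libraries above both WT libraries, an order found in 18.6% of all genes tested. The counting interval of GFI1-KO replicate 1 (134 to 284 CPM, on 30 reads) took in the value of WT replicate 1. The log2 fold change was 0.54 (SE 0.25, edgeR adjusted p = 0.506), and it stayed positive, between 0.33 and 0.83, in each fit without a library. CALCRL lies on chromosome 2 (187343129 to 187448460, minus strand, GRCh38).

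The other accessory proteins were nearly absent from the counts. RAMP1, which would make CALCRL a receptor for calcitonin gene-related peptide, had 0 and 1 reads in GFI1-KO and 0 and 1 in WT. RAMP3, the alternative adrenomedullin partner, had 0 and 1 reads in GFI1-KO and 0 and 0 in WT. RAMP2 therefore made up 100% and 99.6% of all RAMP reads in GFI1-KO replicates 1 and 2, with exact binomial 95% intervals of 93.5% to 100% and 98.6% to 99.95%. In WT replicates 1 and 2 its share was 100% (98.6% to 100%) and 99.4% (96.7% to 99.98%).

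The ratio of RAMP2 to CALCRL reads within a library needs no scaling between libraries. There were 1.83 and 1.31 RAMP2 reads per CALCRL read in GFI1-KO replicates 1 and 2, against 0.766 and 0.660 in WT replicates 1 and 2. The counting intervals of the GFI1-KO libraries (1.16 to 2.96 and 1.15 to 1.50) lay above those of the WT libraries (0.648 to 0.904 and 0.539 to 0.807). On the log2 scale the ratio averaged 0.63 ± 0.34 in GFI1-KO and -0.49 ± 0.15 in WT (SD, n = 2 each), a difference of 1.12, or 2.18-fold. The ratio was chosen after its values were seen and is given as a description, with no test; at 2 libraries a group, an exact two-sided permutation test cannot go below p = 0.333. Per kilobase of merged exons, RAMP2 stood at 9.81 and 7.01 times CALCRL in GFI1-KO and at 4.10 and 3.53 times in WT.

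**Figure D2:**
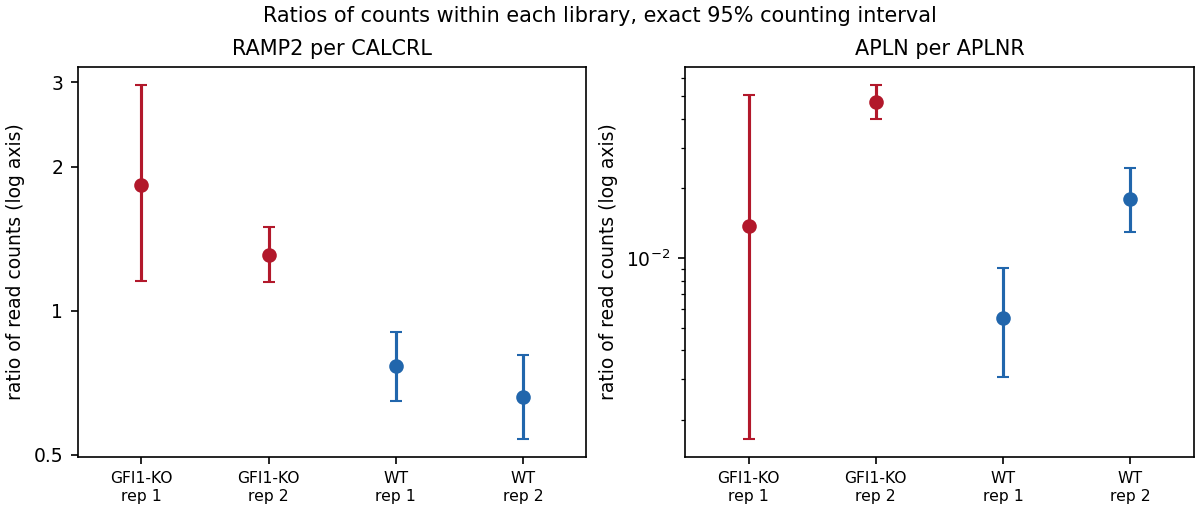
Reads of RAMP2 per read of CALCRL (left) and of APLN per read of APLNR (right), on log axes, in each GFI1-KO (red) and WT (blue) library; bars are exact 95% counting intervals. The RAMP2 ratio is above 1 in both GFI1-KO libraries and below 1 in both WT libraries, while the interval of APLN per APLNR in GFI1-KO replicate 1, on 2 APLN reads, spans the WT values.

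ADM, the ligand of this receptor, was scarce. It had 0 and 15 reads in GFI1-KO and 2 and 7 reads in WT, or 0 and 6.68 CPM against 0.89 and 2.94 CPM. The 0 in the shallow library allows up to 19.9 CPM, above every measured value, so that library says nothing about direction. Pooled over the libraries of each genotype, GFI1-KO stood at 3.21 times WT (exact 95% counting limits 1.32 and 8.33), which rests on GFI1-KO replicate 2 alone. With the low-count filter removed, the log2 fold change was 1.53 (SE 0.90, edgeR adjusted p = 0.69). ADM is on chromosome 11 (10304680 to 10307397, plus strand).

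APLN, the apelin gene, was called higher without GFI1, on the strength of a single library. It was at 13.2 and 64.1 CPM in GFI1-KO replicates 1 and 2, against 6.70 and 17.6 CPM in WT replicates 1 and 2. The groups overlap: GFI1-KO replicate 1, on 2 reads and with a counting interval of 1.60 to 47.9 CPM, lies between the WT libraries, whereas GFI1-KO replicate 2, on 144 reads, lies above both. The mean was 38.7 ± 36.0 CPM in GFI1-KO and 12.2 ± 7.73 CPM in WT (SD, n = 2 each), and the log2 fold change was 2.12 (SE 0.45, edgeR adjusted p = 0.0359).

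Without GFI1-KO replicate 2 the log2 fold change of APLN was 0.12 (adjusted p = 0.976), and without WT replicate 1 it was 1.54 (adjusted p = 0.168). DESeq2 did not call it (1.86, adjusted p = 0.71). With the shallow GFI1-KO replicate 1 left out, the value was 2.38 (adjusted p = 4.04e-10). The WT libraries differed too, with counting intervals of 3.75 to 11.1 CPM in replicate 1 and 12.7 to 23.8 CPM in replicate 2. APLN is on chromosome X (129645259 to 129654937, minus strand).

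APELA, the second ligand, had 0 reads in all 4 libraries. That allows up to 19.9 and 1.34 CPM in GFI1-KO replicates 1 and 2 and up to 1.34 and 1.26 CPM in WT replicates 1 and 2.

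APLNR, the apelin receptor, was the most abundant member per kilobase in 3 of the 4 libraries and showed no called difference. It was at 961 and 1356 CPM in GFI1-KO, against 1218 and 979 CPM in WT. The groups overlap, and in each the libraries differ by more than the means of the groups do. The log2 fold change was 0.10 (SE 0.23, edgeR adjusted p = 0.968), and its sign turned without GFI1-KO replicate 2 (-0.18) or without WT replicate 2 (-0.04). Per kilobase, APLNR ranked at or above the 99.3rd percentile of detected genes in each library. It lies on chromosome 11 (57233577 to 57237314, minus strand).

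Levels per kilobase put the members in an order that held the receptors above the ligands. In GFI1-KO the order was APLNR at 310 ± 74.9, RAMP2 at 260.3 ± 80.8, CALCRL at 30.7 ± 2.38, APLN at 12.1 ± 11.2 and ADM at 1.23 ± 1.74 CPM per kb (SD, n = 2). In WT it was APLNR at 294 ± 45.3, RAMP2 at 79.8 ± 27.5, CALCRL at 20.6 ± 5.04, APLN at 3.80 ± 2.41 and ADM at 0.70 ± 0.53 CPM per kb (SD, n = 2). In GFI1-KO, RAMP2 and APLNR did not differ beyond their spread, and in the shallow library RAMP2 was above APLNR (317 against 257 CPM per kb). In WT, every library had APLNR above RAMP2. APLN reads were 0.0138 and 0.0473 per APLNR read in GFI1-KO replicates 1 and 2, against 0.00550 and 0.0180 in WT replicates 1 and 2. These ratios overlap between the groups.

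**Figure D3:**
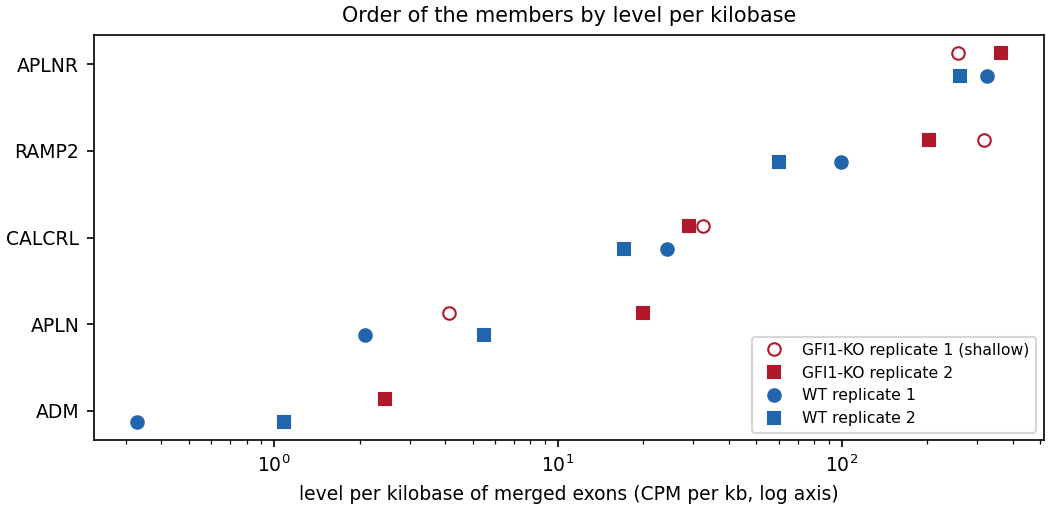
Level of 5 members per kilobase of merged exons (horizontal log axis, CPM per kb) in single libraries, GFI1-KO in red above WT in blue; circles are replicate 1, open for the shallow GFI1-KO library, and squares replicate 2. RAMP2 in GFI1-KO reaches the range of APLNR, and the ADM point of GFI1-KO replicate 1, at 0 reads, cannot be drawn on a log axis; APELA, RAMP1 and RAMP3, at 0 or 1 reads, are left out.

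A list of the wider calcitonin peptide family and of receptors linked to it held 1 further rise, in GPR182. None of its peptide genes was tested. Over all genes tested, 0.773% were called higher in GFI1-KO. Of 8 further genes in the list, 3 were tested, of which 1 rose, 0 fell and 2 missed the threshold. With so few, their median log2 fold change (1.48, against -0.02 over all genes tested) is the value of ACKR3 alone, which did not pass. GPR182, an endothelial receptor once proposed to bind adrenomedullin and later described as an atypical chemokine receptor, was at 39.7 and 43.2 CPM in GFI1-KO, against 8.48 and 8.39 CPM in WT. Both GFI1-KO libraries were far above both WT libraries, on 6 and 97 reads in GFI1-KO and 19 and 20 in WT. That order alone, at any distance, held for 18.6% of all genes tested. The log2 fold change of GPR182 was 2.32 (SE 0.37, edgeR adjusted p = 0.00665). DESeq2 did not call it (2.32, adjusted p = 0.0947), nor did edgeR without GFI1-KO replicate 2 (2.23, adjusted p = 0.131).

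ACKR3, a scavenger receptor that takes up adrenomedullin, had 33.1 and 4.90 CPM in GFI1-KO, against 4.02 and 1.68 CPM in WT (log2 fold change 1.48, adjusted p = 0.662). Its GFI1-KO values rest on 5 and 11 reads. CRCP, which encodes a component of calcitonin gene-related peptide receptor signalling, was at 0.22 on that scale (adjusted p = 0.946). The peptide genes CALCA and CALCB had 0 reads in all 4 libraries, and the untested ADM2, which encodes a related peptide acting on CALCRL, had 0 and 7 reads in GFI1-KO and 11 and 5 in WT.

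Enzymes that mature or degrade these peptides differed at a single gene, where 0.958% of all genes tested were called. Of 15 genes in the list, 9 were tested, of which 1 rose, 0 fell and 8 missed the threshold, with a median log2 fold change of 0.05. PRCP, a carboxypeptidase that shortens apelin peptides, was at 974 and 1005 CPM in GFI1-KO, against 575 and 454 CPM in WT. Both GFI1-KO libraries exceeded both WT libraries, as in 18.6% of all genes tested, and the log2 fold change was 0.95 (SE 0.22, edgeR adjusted p = 0.0471). PRCP kept its call with DESeq2 (adjusted p = 0.0341) and lost it without WT replicate 1 (0.247) or WT replicate 2 (0.762), with the newer quasi-likelihood dispersion (0.0787), upper-quartile scaling (0.078) and a minimum mean of 5 CPM (0.0674). It shares exonic bases with DDIAS on the opposite strand.

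MME encodes the peptide-degrading enzyme neprilysin, and its log2 fold change was 1.00 (adjusted p = 0.162). Its GFI1-KO values were 33.1 and 62.3 CPM, against 28.1 and 28.5 CPM in WT. MME passed without the shallow GFI1-KO replicate 1 (1.14, adjusted p = 0.00622), where the list held 2 calls. PCSK5, a proprotein convertase gene, had 1.51 (adjusted p = 0.329), and its relative PCSK6 had -1.72 (adjusted p = 0.435). FURIN, the convertase that processes proapelin, had -0.27 (adjusted p = 0.845), and PAM, the enzyme that amidates adrenomedullin, had 0.19 (adjusted p = 0.921).

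Genes of signalling downstream of the receptors held 0 calls over all genes. Of 35 in the list, 32 were tested, with a median log2 fold change of 0.20; 26 values were above 0 and 6 below, against 47.5% above 0 over all genes tested. At an unadjusted p under 0.05 there were 6 genes, 4 of them higher, and neither DESeq2 nor limma-voom called any. DESeq2 gave KLF4 no adjusted p, so it could not call that gene. PRKAR2B, a regulatory subunit of protein kinase A, was the member with the smallest p (log2 fold change -0.98, adjusted p = 0.077). MEF2C, a transcription factor that acts downstream of APLNR in endothelium, had 0.90 (adjusted p = 0.112), and GRK5, a kinase that phosphorylates activated receptors, had 1.03 (adjusted p = 0.126). Without the shallow GFI1-KO replicate 1 there were 3 calls: PRKAR2B (-0.96, adjusted p = 0.018), MEF2C (0.84, adjusted p = 0.0285) and the flow-responsive factor KLF4 (1.88, adjusted p = 2.33e-05). Without the low-count filter the same 3 genes were called (PRKAR2B 0.026, MEF2C 0.0429, KLF4 0.00385 as adjusted p). Without WT replicate 2, KLF4 had 2.49 and its relative KLF2 1.64. With all libraries, KLF4 had 1.59 (edgeR adjusted p = 0.229) and KLF2 0.36 (adjusted p = 0.915). KLF4 rests on 0 and 98 reads in GFI1-KO and 13 and 42 in WT. KLF2 was at 106 and 286 CPM in GFI1-KO against 70.6 and 282 CPM in WT. Without GFI1-KO replicate 2 the value of KLF2 was -0.73, so its direction did not hold. That of KLF4 was -7.24, on 0 reads in GFI1-KO replicate 1. This 0 allows up to 19.9 CPM, above the WT values of 5.81 and 17.6 CPM, so it says nothing about the direction of KLF4.

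APLN is also read as a tip cell gene and ADM as a hypoxia target, and these lists held 1 call each. Over all genes tested, 0.958% were called. Of 22 tip cell genes besides APLN, 19 were tested: 1 rose (DLL4, a Notch ligand, 1.22, SE 0.26, adjusted p = 0.0372), 0 fell and 18 did not pass, and the median was 0.16. DLL4 missed the threshold with DESeq2 (adjusted p = 0.0536), the newer dispersion (0.0787), upper-quartile scaling (0.0628), library totals only (0.0533), a minimum mean of 5 CPM (0.0684) and without WT replicate 1 (0.272). MARCKS had 0.67 (adjusted p = 0.177), the chemokine receptor gene CXCR4 had 1.23 (adjusted p = 0.398) and the growth factor gene PDGFB had 0.80 (adjusted p = 0.553). Without GFI1-KO replicate 1 the calls were DLL4, MARCKS and ESM1, all higher, the last of which the filter had left untested. Without GFI1-KO replicate 2 they were DLL4 and CXCR4, both higher, and LAMB1, a laminin gene, lower (-1.45, adjusted p = 0.00239).

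Of 28 hypoxia targets, 24 were tested, of which 1 rose, 0 fell and 23 missed the threshold, with a median of -0.000767 and 12 values on each side of 0. The member that rose was EGLN1, which encodes an oxygen-sensing prolyl hydroxylase (1.36, SE 0.32, edgeR adjusted p = 0.0493). EGLN1 missed the threshold with DESeq2 (adjusted p = 0.281), the newer dispersion (0.0965), RLE scaling (0.0537), upper-quartile scaling (0.0821), library totals only (0.0788) and a minimum mean of 5 CPM (0.0776). It also missed it without WT replicate 1 (0.197) or WT replicate 2 (0.0932). The glucose transporter gene SLC2A1 had -1.13 (adjusted p = 0.0935), NDRG1 had 1.27 (adjusted p = 0.128) and LDHA had -0.67 (adjusted p = 0.213). Without GFI1-KO replicate 1 the list held 3 calls, EGLN1 and NDRG1 higher and SLC2A1 lower.

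**Figure D4:**
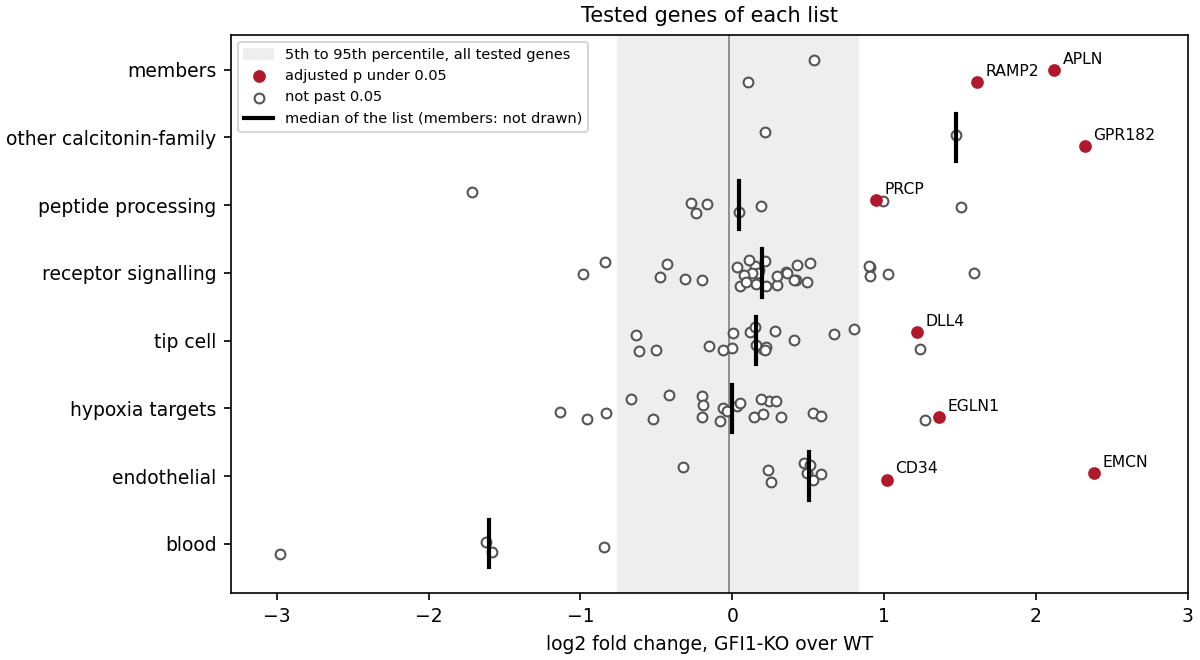
Log2 fold change (GFI1-KO over WT) of each tested gene by list; red points passed an adjusted p under 0.05, open points did not, black bars are list medians (none is drawn for the members) and the grey band holds the central range of all tested genes, from -0.76 to 0.83. RAMP2, APLN and GPR182 lie to the right of the band, and the hypoxia genes are spread on both sides of 0.

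Most endothelial markers lay higher in GFI1-KO, and a minority of them were called, where 0.773% of all genes tested were called higher in GFI1-KO. At an unadjusted edgeR p under 0.05 there were 5, all higher. Values above 0 were found for 9 of the 10, against 47.5% over all genes tested. Both GFI1-KO libraries were above both WT libraries for 7 of the 10, against 18.6% over all genes tested. Of 10 endothelial markers, all tested, 2 rose (EMCN, 2.38, adjusted p = 0.00959, and CD34, 1.02, adjusted p = 0.0357), 0 fell and 8 did not pass; the median was 0.50. Among those that did not pass, TIE1 had 0.58 (adjusted p = 0.287), and PECAM1 was the 1 marker below 0 (-0.33, adjusted p = 0.759), at 344 and 324 CPM in GFI1-KO against 443 and 388 CPM in WT. The CD34 call was lost without WT replicate 1 (0.54) or WT replicate 2 (0.247), with the newer dispersion (0.0673), upper-quartile scaling (0.0587) and a minimum mean of 5 CPM (0.0507). In bulk RNA, a different share of endothelial cells and a different RNA level per cell cannot be told apart. RAMP2, CALCRL and GPR182 are expressed in endothelium, and the part of these marker differences in their values was not tested.

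Blood markers pointed the other way without passing. Of 10, 4 were tested and 0 called, with 3 lower at an unadjusted p under 0.05 and a median of -1.60; ITGA2B was the lowest (-2.98, adjusted p = 0.0893). The summed level of all 10 was 26.5 and 20.5 CPM in GFI1-KO against 50.5 and 61.7 CPM in WT. In GFI1-KO replicate 1, SPN, ITGA2B and SPI1 had 0 reads and GP1BA had 2. A count of 0 there allows up to 19.9 CPM, above the WT values of SPN, ITGA2B and SPI1. That library therefore says nothing about the direction of these genes. PTPRC, HBE1 and HBG1 had 0 reads in all 4 libraries. Neither DESeq2 nor limma-voom called any blood marker. DESeq2 gave ITGA2B and GP1BA no adjusted p, so it could not call them. With edgeR, ITGA2B was called without the low-count filter (-2.99, adjusted p = 0.00505) and with the replicate number as a block (-3.43, adjusted p = 0.00108). Without GFI1-KO replicate 1, ITGA2B had a log2 fold change of -2.89 and GP1BA of -1.73.

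Mural and stromal, mesoderm and cardiac, and pluripotency markers held 0 calls with edgeR, DESeq2 or limma-voom. At an unadjusted p under 0.05, 2 of the 9 tested mural and stromal markers passed, CSPG4 (1.34, adjusted p = 0.218) and DES (-2.42, adjusted p = 0.264), and the median was -0.19. Among 4 mesoderm and cardiac markers 1 did, MIXL1 (-2.12, adjusted p = 0.381), with a median of -0.30, and among 3 pluripotency markers 1 did, ZFP42 (-1.44, adjusted p = 0.208), with a median of -0.36. NANOG had 0 reads in all 4 libraries.

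The genes whose profiles over the 4 libraries lay closest to the called members were named by the root mean square difference of log2 CPM values, each centred on its mean. For APLN they were SLIT2 (0.28), S1PR1 (0.31), TNC (0.32), MDGA1 (0.41) and PCDH11X (0.42). SLIT2, S1PR1 and TNC share with APLN a high value in GFI1-KO replicate 2, which follows from how they were picked. They were also called (edgeR adjusted p = 0.0247, 0.0424 and 0.0256). Their positive log2 fold changes, 2.07, 1.50 and 1.67, follow from the same choice. In GFI1-KO replicate 1, SLIT2, S1PR1 and TNC were at 19.87, 39.75 and 26.5 CPM, where a single read is worth 6.62 CPM. For RAMP2 they were SCHIP1 (0.05), CX3CR1 (0.09), FAM241A (0.10), HAND2 (0.14) and PF4 (0.15). None of these 5 passed the test, and SCHIP1, CX3CR1, FAM241A and PF4 are at 19.9 CPM or less in GFI1-KO replicate 1, which is 3 reads. A profile of 4 libraries, one of them shallow, separates few genes.

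**Figure D5:**
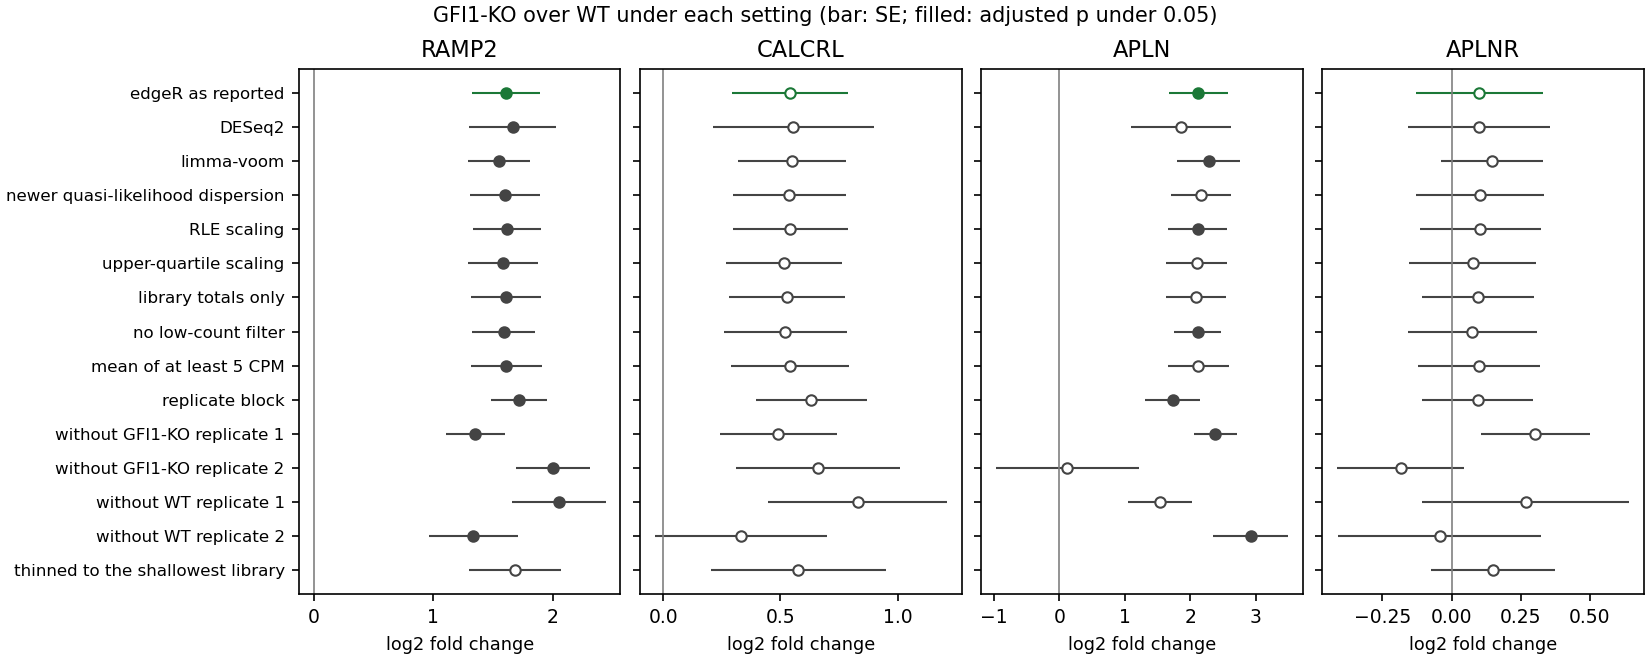
Log2 fold change of the 4 tested members (horizontal axes, with a different range in each panel; GFI1-KO over WT) under each setting (rows); bars are standard errors, filled points passed an adjusted p under 0.05, green is the fit as reported, and APLN was not testable after thinning. RAMP2 stays between 1.34 and 2.05, APLN drops to 0.12 without GFI1-KO replicate 2, and APLNR crosses 0.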

How the data were processed

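The authors deposited raw read counts per Ensembl gene, 1 column per library. Tools named in the submitters' processing notes, without role or order, are HTSeq 0.6.0, HISAT2 2.0.4, DESeq 1.18.1 and SAMtools 1.3.1, and the builds are hg38 and GRCh38. Of 19912 identifiers, 19902 matched GENCODE release 29 (GRCh38), which gave symbols, positions, overlaps and merged exon lengths. Counts were tested with edgeR 4.0.16 (R 4.3.3) after TMM scaling and filterByExpr (minimum count 10, minimum total 15), with glmQLFit in its default earlier dispersion form, glmQLFTest and Benjamini-Hochberg adjustment over 11380 genes at 0.05. Alternatives were DESeq2 1.42.0, limma-voom (limma 3.58.1), the newer dispersion, 3 scalings, 2 filters, a replicate block, thinning (10 draws to 146584 counts) and leaving out each library. CPM values use TMM-adjusted totals of tested genes; profiles use log2(CPM + 2). Members and the 10 other lists (152 entries) were chosen with earlier results of these data known. Named beside the members are called list genes, up to 3 further members per list with the smallest p, and the 5 nearest profiles of each called member; other list genes in the text were named after their values were seen.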

Additional observations from a re-analysis of the deposited data

How the results depend on the processing

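RAMP2 kept its direction under all 14 alternatives and its call under 13; thinning to the shallow library gave 1.68 without a call. APLN kept its direction and lost its call with DESeq2 (log2 fold change 1.86), the newer dispersion (2.17), upper-quartile scaling (2.10), library totals only (2.09) and a minimum mean of 5 CPM (2.12); leaving out a library gave 0.12 to 2.92, and it did not pass the filter after thinning. CALCRL was called under none. APLNR was called under none and reversed when GFI1-KO replicate 2 (-0.18) or WT replicate 2 (-0.04) was omitted, in a range of -0.18 to 0.30. RAMP shares moved by less than their spread over libraries. The count of called genes, 109, was 33 with DESeq2, 58 with the newer dispersion, 58 with upper-quartile scaling, 72 with library totals only, 305 without the filter, 50 with a minimum mean of 5 CPM, a median of 8.5 after thinning and 62 to 373 without a library; the cause was not tested. The number of genes given an adjusted p differed as well. It was 11380 in the fit as reported, 8070 with DESeq2, 15579 without the filter and a median of 3732.5 after thinning. With the replicate number as a block 327 genes were called, and APLN and RAMP2 stayed called. That fit called CSPG4 among the mural and stromal markers (1.58, adjusted p = 0.0299). Among the signalling genes it called PRKAR2B, MEF2C and GRK5 (adjusted p = 0.0108, 0.00323 and 0.0353). It also called 3 tip cell genes, 4 hypoxia targets and 1 blood marker. Same-numbered libraries deviated together with a correlation of 0.132 across genes, but no label ties the numbers, so they share only a number. A fit that leaves 1 library in a group assumes that it varies like the other group. ADM, APELA, RAMP1 and RAMP3 have no tested value to compare. Depth limits what can be said of them, and of each low gene in GFI1-KO replicate 1.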
